A study of Schizosaccharomyces pombe with 4 samples.

Results

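The genes of the Ste11-Mei2 switch and of pheromone signalling in S. pombe were examined in wild-type cells and in the strain fas S.j., where fas1 and fas2, the fatty acid synthase genes, were replaced by those of S. japonicus and marked with kanR and hygR. They were chosen as a list of 10 gene identifiers, out of 5143 genes in the table for 24°C. These identifiers belong to gpa1 (SPBC24C6.06), ste6 (SPCC1442.01), ste4 (SPAC1565.04c), byr2 (SPBC1D7.05), spk1 (SPAC31G5.09c), ste11 (SPBC32C12.02), pat1 (SPBC19C2.05), mei3 (SPBC119.04), mei2 (SPAC27D7.03c) and SPCC736.11. The last of these was listed under the name mmi1, but the RefSeq annotation of ASM294v3 gives SPCC736.11 as the Argonaute gene ago1 and places mmi1 next to it as SPCC736.12c. SPCC736.11 is therefore reported here as ago1, and mmi1 is given beside the 10 genes and not counted among them.

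Both strains grew exponentially in YES, a rich medium, at 24°C or at 30°C, and each strain gave 1 poly(A) library at each temperature (4 libraries). With a single library per group, no difference given here has a replicate, an error or a test. The wild type in the strain list of the study is an h- prototroph, and the list holds an h- strain of fas S.j. with mutations in ade6, ura4 and leu1 and an h+ prototroph, without saying which of them was sequenced. The replaced genes follow the labels: at 24°C the FPKM (fragments per kilobase of transcript, scaled to library size) of fas1 was 301 in wild type against 7.35 in fas S.j., and at 30°C it was 344 and 16.6.

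Fission yeast cells mate and enter meiosis when nutrients, above all nitrogen, run short. Starvation raises the transcription factor Ste11, an HMG-box protein that binds the TR box and drives mei2 and the mating genes, its own gene included. Pheromone bound to its receptor acts through the G protein alpha subunit Gpa1, the Ras1 exchange factor Ste6, the adaptor Ste4 and a MAP kinase cascade of Byr2, Byr1 and Spk1, which feeds back on Ste11. In growing cells the kinase Pat1 phosphorylates and restrains both Ste11 and Mei2, until the inhibitor Mei3 releases them in diploid cells. The RNA-binding protein Mei2 then starts meiosis, in part by sequestering Mmi1, which in growing cells sends meiotic mRNAs to the nuclear exosome.

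The letters of the TR box are shown first, since Ste11 is known to bind this motif. The window from 250 bases before to 50 bases after each annotated gene start was searched on both strands of ASM294v3 for TTCTTTGTT, which reads AACAAAGAA on the other strand. The sites found in the 10 genes are printed below with 10 bases on either side, on the strand of the gene and with the match in capitals. The number in each name is the distance in bases from the annotated gene start to the first base of the match.
mei2, 160 before: gccgaccgatTTCTTTGTTcctattttaa
mei2, 138 before: attttaaagtTTCTTTGTTttacaaaccc
mei2, 34 after: gctgttgagaTTCTTTGTTtacttggctt
ste11, 127 before: aaagttgaatTTCTTTGTTtgattttcat
ste4, 54 before: tgagtatgctTTCTTTGTTataaaagtag
spk1, 187 before: agttagtgtaAACAAAGAAtatgcgcgac
spk1, 62 before: gcaatacattAACAAAGAAactttctttg
spk1, 50 before: caaagaaactTTCTTTGTTattgtaagtt
ste6, 180 before: attgttagtaAACAAAGAAattcccaaaa

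A match was present in 5 of the 10 genes, and in 102 of the 5123 gene windows of this length in the genome (1.99%). The genes mei2 and spk1 each had 3 matches, and 8 windows in the genome had 2 or more. The pair of spk1 matches nearest the gene start lies on opposite strands without overlap. The mei2 sites, in the order printed, are at chrI:4515167-4515195, chrI:4515145-4515173 and chrI:4514973-4515001 on the minus strand of ASM294v3, and the ste11 site at chrII:3983239-3983267 on the plus strand. The ste4 site lies at chrI:1296579-1296607 on the minus strand, and the ste6 site at chrIII:1765896-1765924 on the plus strand. Those of spk1 are at chrI:3001687-3001715, chrI:3001562-3001590 and chrI:3001550-3001578 on the minus strand. The third mei2 match falls inside the transcript, in the 5′ untranslated region, which is 1733 bases long in this annotation. No match was found in these windows of gpa1, byr2, pat1, mei3, ago1 or mmi1. The annotation begins pat1, like ste6, at its start codon, so where its transcription starts within or outside the window is not known here. The search asked for 9 letters and set no rule for the next base, read on the strand of TTCTTTGTT. That base was C or T at every mei2 site, at the ste11 and ste6 sites and at the spk1 site 187 before. It was A or G at the ste4 site and at the other spk1 sites. A match is a description of the letters, and binding was not measured.

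For each temperature the FPKM + 1 of fas S.j. was divided by the FPKM + 1 of wild type, and the log2 of this quotient is called the change, which is understated where FPKM is low. A gene is said to be called when this change is beyond 0.8 in either direction. The study set the same number on its own log2 fold changes, together with a p-value. Here it is applied to FPKM + 1 and without a p-value. At 24°C, 5 of the 10 genes were called lower in fas S.j., against 103 of the 4943 genes whose FPKM averaged 1 or more (2.08%). These were mei2, ste11, ste4, spk1 and gpa1. In the other direction, ste6 was the 1 gene called higher, where 4.19% of all genes were. The remaining 4 genes, byr2, pat1, mei3 and ago1, lay within the limit. Only mei3 had a mean FPKM below 1, so 9 of the 10 genes are among the 4943. The median change of the 10 genes was -0.73, and that of all 4943 genes was -0.0037, with the 5th and 95th percentiles at -0.46 and 0.71. With a pseudocount of 10 in place of 1, the changes of spk1 (-0.67), gpa1 (-0.65) and ste6 (0.60) lay within the limit. The list was drawn up with earlier results of these data known, so this count describes the list and does not set it apart from others.

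**Figure D1:**
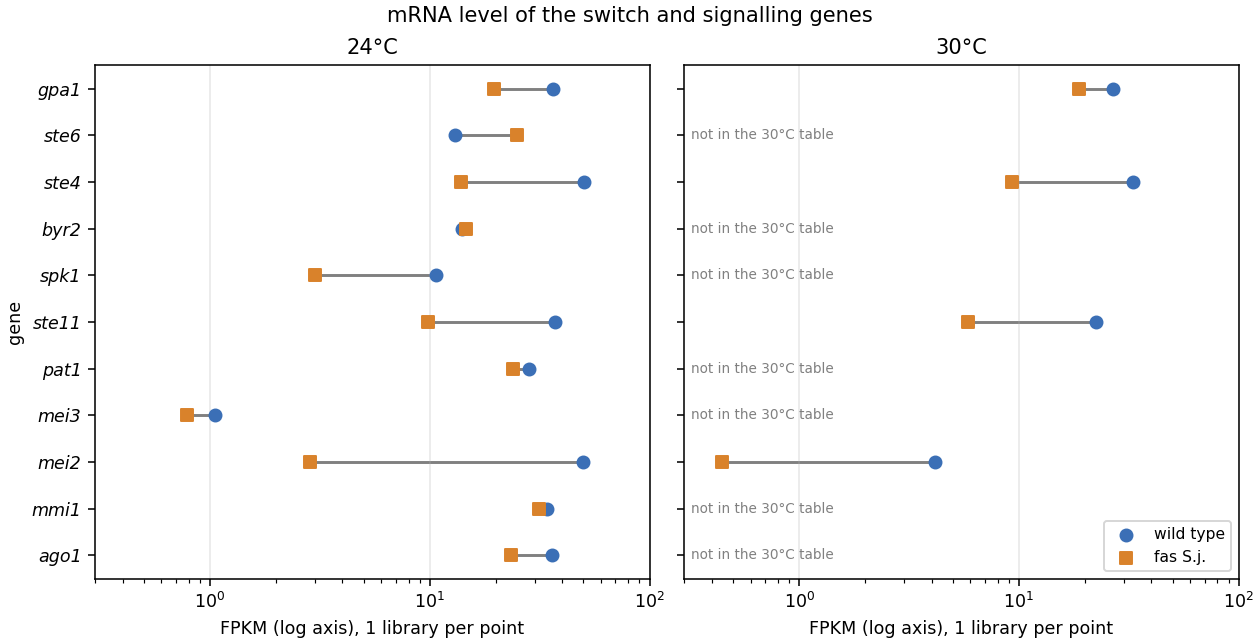
FPKM (log axis) of the 10 genes and of mmi1 in wild type (circles) and fas S.j. (squares) at 24°C and 30°C, with 1 library per point and no error bars. At 24°C mei2 spans the widest range, between 2.86 (fas S.j.) and 49.6 (wild type), while byr2 and mmi1 have nearly coincident points, and only gpa1, ste4, ste11 and mei2 appear at 30°C.

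The table for 30°C holds 285 genes, all lower in fas S.j., with a log2 ratio of FPKM of at most -0.50, and is therefore a part of that comparison. It lists 4 of the 10 genes, gpa1, ste4, ste11 and mei2, and 3 of them were called lower. Of the 274 genes in it that average 1 FPKM or more, 31.8% were called lower, and since a gene is listed only when it was lower, nothing is read from this count. A lower level at 30°C was likewise a condition of listing, so the direction of a listed gene there is no observation of its own, and its values at 30°C are given as a description. The 4 listed genes are all among the 5 called lower at 24°C. For spk1, ste6, byr2, pat1, mei3 and ago1 the level at 30°C was not analysed here.

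At the centre of the switch, ste11 had an FPKM of 37.1 in wild type against 9.81 in fas S.j. at 24°C. Its change was -1.82, leaving 26.4% of the wild-type FPKM, and it took place 28 of the 4943 genes from the lowest change upwards. At 30°C ste11 had 22.4 in wild type against 5.87 in fas S.j., a change of -1.77, with 26.2% of wild type left. In ASM294v3 the gene spans 3983376 to 3987400 of chromosome II, plus strand, alone in its locus, with a single exon and a 5′ untranslated region of 2210 bases that is longer than its coding sequence of 1407 bases.

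Among the 10 genes mei2, the meiosis gene, differed most. It had an FPKM of 49.6 in wild type against 2.86 in fas S.j. at 24°C, which is a change of -3.71 with 5.77% of wild type left, which put it at place 7 of the 4943 genes. At 30°C mei2 had 4.14 in wild type against 0.447 in fas S.j., a change of -1.83 with 10.8% left, though its change there was -0.44 with a pseudocount of 10. The wild-type FPKM of mei2 was also far lower in the 30°C table than in the 24°C table, but the tables were normalized separately and hold 1 library per strain, so this contrast was not computed. In wild type at 24°C mei2 was second only to ste4 among the 10 genes, and 58.4% of all genes lay below it. In fas S.j. it was next to last, above mei3 alone, with 6.01% of all genes below it. The gene lies alone in its locus on chromosome I from 4510983 to 4515025, on the minus strand.

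The genes for the regulators of Mei2 protein were not called. The kinase gene pat1, which restrains both Ste11 and Mei2, had an FPKM of 28.2 in wild type against 23.9 in fas S.j. at 24°C, which is a change of -0.23, and lies on chromosome II, 1682861 to 1684555, plus strand. The gene for its inhibitor, mei3, was barely detected, with 1.05 in wild type against 0.784 in fas S.j., and shares its locus with lsb1, which is transcribed from the other strand. On chromosome II mei3 spans 719719 to 720990, plus strand. From the steps of low FPKM values these figures correspond to roughly 15 and 9 reads, so nothing is read from the difference between them. The smallest difference in mei3 that could be seen at this depth was not computed. Haploid cells are known to keep mei3 off, since its transcription needs mating-type genes of both kinds. The M genes of the mating-type locus and of its silent copy, which are duplicates of one another, are listed at 0 in both libraries. How reads that match both copies were counted is not given in the sources used here. The 0 is therefore not read as absence of their mRNA.

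For the RNA elimination factor mmi1 (SPCC736.12c) the FPKM was 34.3 in wild type against 31.5 in fas S.j. at 24°C, which is a change of -0.12, within the limit. Its neighbour ago1, an Argonaute of the RNA interference pathway, had 36.1 in wild type against 23.5 in fas S.j., a change of -0.60, also within the limit. On chromosome III ago1 spans 334079 to 337070 on the plus strand and mmi1 337088 to 340112 on the minus strand. Of 9 partners of Mmi1 in RNA elimination, among them red1, erh1, rrp6 and pab2, 0 were called, with changes from -0.34 to 0.18 and a median of -0.09. With 6.27% of all genes called in either direction, 0 of 9 is near the background. Of 7 mRNAs that Mmi1 is known to remove, 0 were called lower and 1 was called higher, the cyclin gene crs1, with 0.313 FPKM in wild type against 1.38 in fas S.j., roughly 3 and 12 reads. Its mean FPKM is below 1, so crs1 is not among the 4943 genes behind the genome share, and in the 30°C table it had 1.06 and 0.699, a change of -0.28. All 7 had a change above 0, from 0.02 to 0.86 with a median of 0.21, whereas 50.7% of all genes had one below 0. Most of the 7 averaged below 10 FPKM, while 4543 of the 4943 genes averaged 10 or more. The share for genes as weak as these was not computed, so nothing is read from the common sign. The most abundant of the 7, tht2, had 13.1 in wild type against 15.3 in fas S.j. The forkhead factor gene mei4 had 3.95 and 5.52, and the meiotic cohesin gene rec8 had 2.61 and 3.90. None of these 3 was called. The genes crs1, mei4 and tht2 share their loci with other genes.

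Of the listed genes of the pheromone pathway, gpa1, ste4 and spk1 were called lower, byr2 lay within the limit and ste6 was called higher. The G protein gene gpa1 had an FPKM of 36.4 in wild type against 19.6 in fas S.j. at 24°C, which is a change of -0.86, just beyond the limit. At 30°C it had 26.7 and 18.8, a change of -0.48, within the limit. With 70.6% of wild type left at 30°C, gpa1 lay close to the ratio at which that table ends. The gene is a single exon on chromosome II of ASM294v3, from 2329710 to 2331890 on the plus strand, alone in its locus.

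The adaptor gene ste4, whose product binds Byr2, had the highest wild-type FPKM of the 10 genes at 24°C, with 50.5 in wild type against 13.9 in fas S.j. Its change was -1.79, with 27.6% of wild type left. At 30°C it had 33.0 and 9.29, a change of -1.72 with 28.2% left. The gene has 2 exons and lies on chromosome I, 1295316 to 1296543, minus strand. It shares its locus with SPAC1565.03 on the other strand, which was higher in fas S.j., with 6.66 in wild type against 9.78 in fas S.j. Among 269 genes that average 1 FPKM or more in both tables, ste4 was the gene whose pair of changes lay nearest to that of ste11, at a Euclidean distance of 0.055 on the log2 scale.

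The next 4 genes near ste11 by that measure were rpc17, gpd3, mfm3 and pho84, at distances of 0.51 to 0.61. For mei2 the nearest gene was the uracil-regulated urg2, at 0.30, followed by tip1, isp7, mfm1 and SPAC1039.01, at 0.60 to 1.11. Each of these pairs rests on 4 libraries, and every gene of the 30°C table was listed there for a lower level in fas S.j., so likeness of this kind was in part fixed by the table.

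The MAP kinase gene spk1, at the end of the cascade, had an FPKM of 10.7 in wild type against 3.01 in fas S.j. at 24°C, which is a change of -1.54 with 28.1% of wild type left. It lies on chromosome I, 2999546 to 3001518, minus strand. It shares its locus with hem4 on the other strand, which had 43.5 in wild type against 56.3 in fas S.j. The libraries were strand-specific, but whether strand was used in counting is not given in the sources used here, and reads of overlapping genes can be divided between them. The value of spk1 in fas S.j. corresponds to roughly 55 reads.

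The kinase upstream in the same cascade was nearly level. The FPKM of byr2 was 14.0 in wild type against 14.6 in fas S.j. at 24°C, which is a change of 0.05. It lies on chromosome II, 1740048 to 1742344, minus strand, and shares its locus with mrpl7 on the other strand. Its substrate gene byr1, which encodes the MAP kinase kinase, had 88.3 and 67.4, a change of -0.38, and the GTPase gene ras1 had 65.7 and 71.8, a change of 0.13. Neither was called, so of the 3 kinases of the cascade spk1 was the 1 called lower.

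The exchange factor gene ste6 was the 1 gene of the 10 called higher. Its FPKM was 13.0 in wild type against 24.9 in fas S.j. at 24°C, which is a change of 0.89, and it had the highest FPKM of the 10 genes in fas S.j. but only the eighth highest in wild type. It lies on chromosome III, 1766086 to 1768971, plus strand. It shares its locus with glm2, on the same strand, which differed in the same direction, with fas S.j. at 163% of wild type, a change of 0.68. Whether reads were exchanged between ste6 and glm2 was not tested. The RefSeq annotation begins ste6 at its start codon, so the true distance of its TR box from the start of transcription is not known here.

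**Figure D2:**
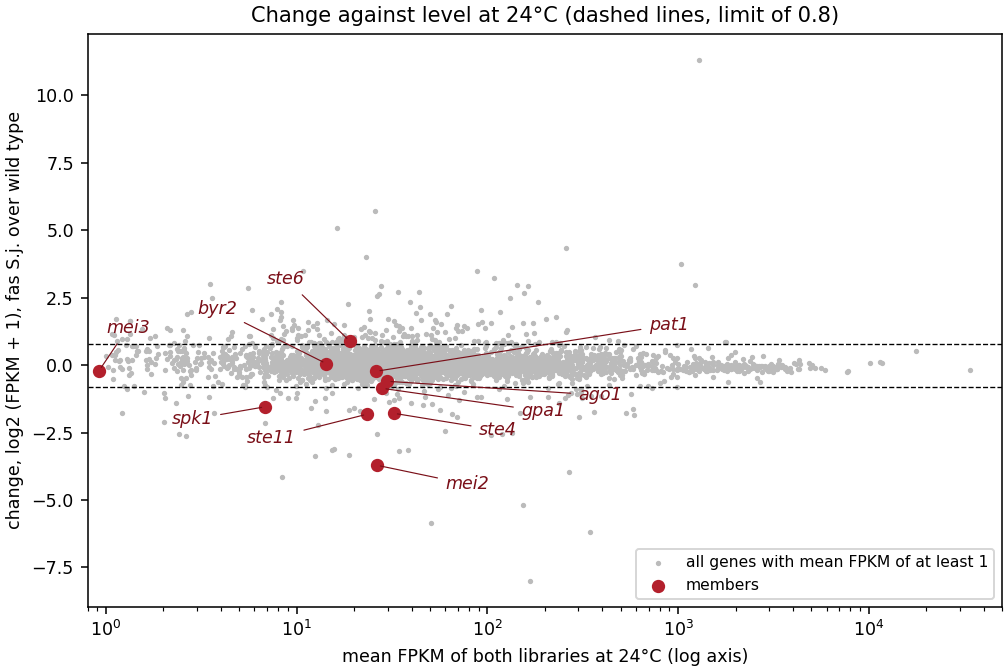
Change at 24°C (log2 of FPKM + 1, fas S.j. over wild type) against the mean FPKM of both libraries (log axis), for all 4943 genes above the minimum FPKM in grey and the 10 genes in red, with dashed lines at the limit of 0.8. The red points of mei2, ste11, ste4, spk1 and gpa1 lie under the lower line, and ste6 lies just above the upper one.

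Further genes of the pathway were described by lists drawn up from general knowledge, with earlier results of these data known. The median change of 12 other signalling genes at 24°C was -0.17. Of the 12, 3 were called lower and 0 higher, where 2.08% and 4.19% of all genes were. Called lower were ste7, a mating and meiosis gene, rgs1, a regulator of G protein signalling, and ral2, which acts with Ras1. In wild type against fas S.j., ste7 had 22.3 and 6.13 FPKM, rgs1 18.3 and 6.74, and ral2 13.0 and 5.04. The ral2 value is the least certain, since its locus holds 6 genes. Both ste7 and rgs1 have TR boxes in the window used above, ste7 with 1 and rgs1 with 3, and at 30°C ste7 had 12.4 in wild type against 6.69 in fas S.j. The receptor genes mam2 and map3 were not called, with changes of -0.40 and 0.72.

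Of 11 other genes that Ste11 is known to activate, 5 were called lower and 1 higher, where 2.08% and 4.19% of all genes were. The median change of the 11 was -0.40. The lower ones were the M-factor genes mfm1, mfm2 and mfm3, the P cell co-activator gene map1 and again rgs1. The gene called higher was the carboxypeptidase gene sxa2, with 11.3 FPKM in wild type against 23.9 in fas S.j. Both sxa2 and the M-factor genes are counted again below among the genes of M cells. Others were near level, such as the cell fusion gene fus1, with a change of -0.08, and rep1, with -0.14 and 2 TR boxes of its own.

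The genes that carry signals of glucose, stress and nitrogen to ste11 were also counted. Of 16 such genes, 0 were called, where 6.27% of all genes were called in either direction, so a count of 0 is near the background. Of the 16, 12 had a change below 0, beside 52.1% of the 4543 genes that average 10 FPKM or more. The 16 changes had a median of -0.17 and ran from -0.62 to 0.39. The list includes the protein kinase A genes pka1 and cgs1, the stress kinase gene sty1, and tor1 and tor2. Nearest to the lower limit were gpa2, the G protein alpha subunit of glucose sensing, with 43.6 in wild type against 28.0 in fas S.j., and pcr1, the partner of Atf1, with 47.9 and 31.1. Their changes of -0.62 and -0.61 lay below the 5th percentile of all genes, -0.46. In the 30°C table pcr1 had 84.3 in wild type against 49.2 in fas S.j., a change of -0.76.

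**Figure D3:**
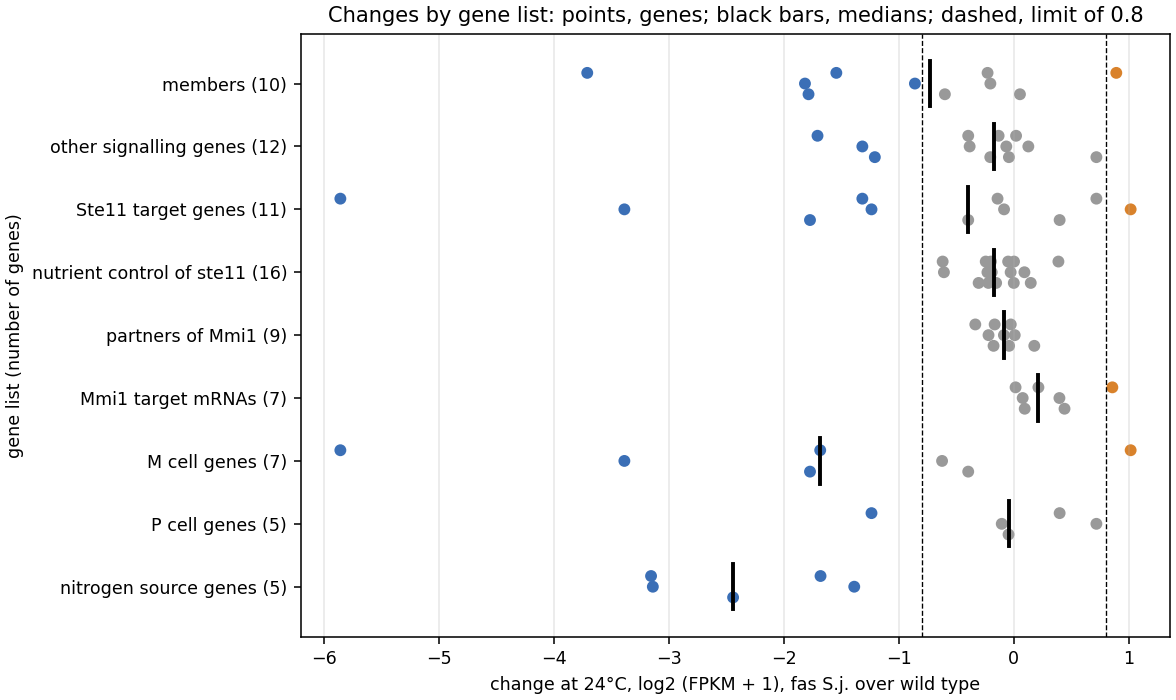
Change at 24°C (log2 of FPKM + 1, fas S.j. over wild type) of each gene of 9 lists, with 1 point per gene, black bars at list medians and dashed lines at the limit of 0.8. All 16 genes of nutrient control and all 9 partners of Mmi1 lie between the dashed lines, while the 10 genes range from -3.71 to 0.89, and some genes belong to more than 1 list.

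Further groups of genes were counted beside the 10 genes, from lists chosen with earlier results of these data known. Of 7 genes of M cells, the h- mating type, 4 were called lower and 1 higher, where 2.08% and 4.19% of all genes were. The summed FPKM of the 7 was 1050 in wild type against 318 in fas S.j. (1049.5 and 317.5). Most of both sums is mfm3, with 823 and 240.1. None of the 7 is at 0 in either library, but mfm2, with 100.1 and 0.740 FPKM, and mfm1, with 23.6 and 1.35, rest on roughly 2 and 3 reads in fas S.j. Of 5 genes of P cells, the h+ type, 1 was called lower and 0 higher, beside the same shares of all genes. The summed FPKM of the 5 was 260 in wild type against 240.1 in fas S.j. Most of these sums is the protease gene sxa1, with 236 and 219.6, while map1 had a change of -1.24, map3 of 0.72 and map2 of 0.40. The P-factor gene map2 had 1.47 in wild type against 2.26 in fas S.j., and the mating type of the fas S.j. library was not determined. All 5 genes tied to the use of nitrogen sources, isp4, isp5, isp7, amt1 and put4, were called lower, where 2.08% of all genes were. Their changes ran from -3.16 to -1.39, with a summed FPKM of 287 in wild type against 57.0 in fas S.j. As this list was chosen with earlier results known, the count describes these 5 genes and no wider set. The part of mating type and of nitrogen supply in the levels of ste11, mei2, ste4 and spk1 was not tested, and with 1 library per strain and temperature they cannot be told apart from the replaced enzyme. In bulk RNA, fewer cells that express a gene and less of its mRNA per cell cannot be told apart either.

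**Figure D4:**
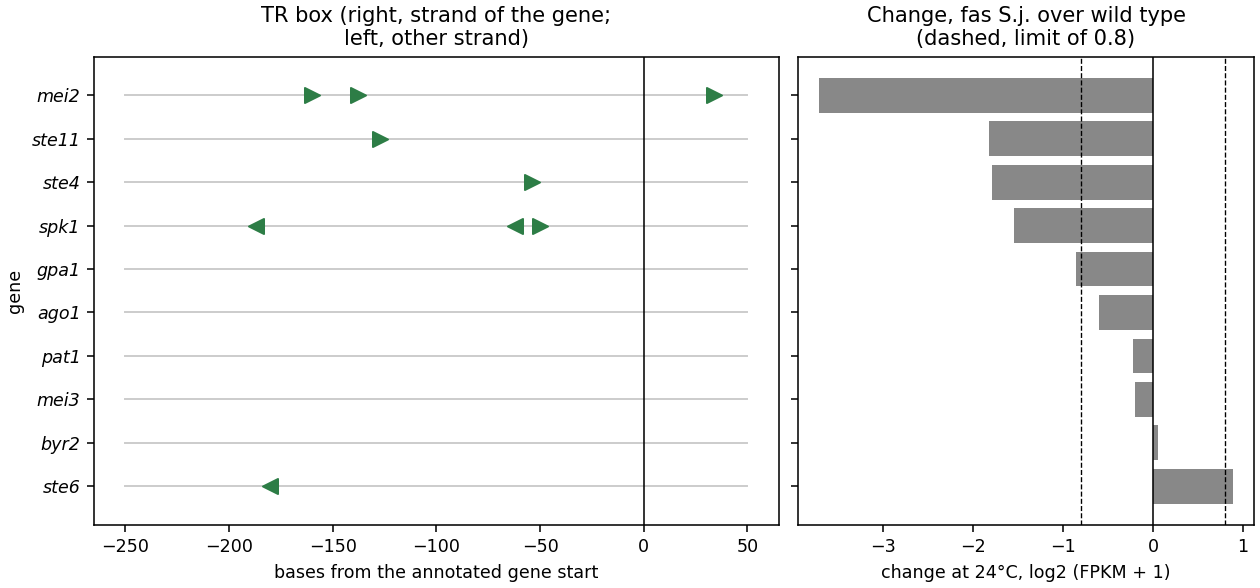
TR boxes in the window from 250 bases before to 50 bases after the annotated start of the 10 genes (triangles, pointing right for the strand of the gene and left for the other), beside the change of each gene at 24°C (bars, log2 of FPKM + 1, dashed lines at the limit of 0.8). The 4 genes with the lowest changes, mei2, ste11, ste4 and spk1, have boxes, gpa1 has none and was called lower, and ste6 has 1 and was called higher. A box is a match to 9 letters, and the base after the only ste4 match is not C or T.

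Read by the TR box, the 10 genes divide unevenly. Of the 5 with a box, 4 were called lower and ste6 was called higher. Of the 5 without one, gpa1 was called lower and the others lay within the limit. The 10 genes were listed with earlier results of these data known, and Ste11 is known to drive mei2 and its own gene. This split therefore describes the list and is no separate observation. Over the rest of the genome, 91 genes past the same minimum had a box in the same window. Of these 9 were called lower (9.89%) and 4 higher, beside the 2.08% and 4.19% of all genes. The share called lower depended on the window, with 6.80% (10 of 147 genes) from 500 bases before to 50 after the start and 3.77% (10 of 265) over the 1000 bases before it. In the first window the median of the 91 was -0.02, and 56.0% had a change below 0, beside 50.7% of all genes. Their 9 lower genes include mfm1, mfm3, ste7, rgs1 and map1 of the lists above, and mam4, itr2, anc1 and SPBC23G7.10c, which were named after their values were seen. The share of 9.89% is therefore not independent of those lists, and a share without the listed genes was not computed. At mfm1, mfm3 and map1 the base after the match, read on the strand of TTCTTTGTT, is not C or T.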

How the data were processed

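Poly(A) RNA of wild type and fas S.j. was sequenced in 1 library per strain and temperature. The authors mapped reads with TopHat and ran Cuffdiff once per temperature (submitters' processing notes and the methods, versions and build not given in the sources used here). Cuffdiff gave the deposited FPKM, 1 value per gene and library without pooling. The deposited tables also hold the authors' fold changes, test statistics, p-values and q-values from 1 library against 1, which were not used.

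Changes were log2 ratios of FPKM + 1. Genes beyond 0.8 were called. For all genes a mean FPKM of at least 1 was required. No p-value was computed. Alternatives were pseudocounts of 0.1 and 10, a limit of 1, a minimum mean of 10 or none, centring on genes with a mean of at least 10, and genes alone in their locus. The members and lists were chosen with earlier results of these data known. Named genes were the members, genes of the lists beyond the limit or used to break down a count, and the 5 genes nearest to ste11 and to mei2 by Euclidean distance between changes at both temperatures.

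Identifiers were matched to RefSeq (ASM294v3) without regard to case, 5106 of 5143. All 2348 loci of a single matched gene overlapped that gene in RefSeq, and 1915 shared a start or end with it. The tables hold no counts. Low FPKM times length in kb, less 200 bases, fell on steps of about 0.0755 in wild type (47 genes) and 0.0965 in fas S.j. (38 genes) at 24°C, taken as 1 read, which gives about 13200000 and 10400000 reads. Read numbers are rough. Calls and steps were tested on simulated data. Python 3.11.15, numpy 2.4.6, pandas 2.3.3, Biopython 1.88 and matplotlib 3.10.9 were used.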

Additional observations from a re-analysis of the deposited data

Results flagged for a closer look

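The meiotic cyclin gene crs1 had an FPKM of 0.313 (wild type) against 1.38 (fas S.j.) at 24°C. Its change there was 0.86, on roughly 3 and 12 reads. At 30°C it had 1.06 against 0.699, a change of -0.28. The signs differ, but only genes lower in fas S.j. are listed in the 30°C table, so the sign there was fixed by listing. The difference was not tested, and each value comes from 1 library.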

How the results depend on the processing

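With a pseudocount of 10 in place of 1, 3 of the 10 genes were called at 24°C in place of 6 (mei2, ste11 and ste4), and 3.64% of all genes in place of 6.27%. Among the 5 genes alone in their locus, 3 were called (mei2, ste11 and gpa1), since ste4, spk1 and ste6 share theirs. Under the other alternatives, and with mmi1 in place of ago1 (added after seeing the data), these counts stayed within 1.5 times. A limit of 1 left out gpa1 and ste6. Of 38 changes of single genes recomputed with other pseudocounts or centring, 11 moved by more than 0.25 and 0 reversed. The change of mei2 at 30°C, on a low FPKM, ranged from -0.44 with a pseudocount of 10 to -2.95 with 0.1. With promoter windows of 500 and 1000 bases, added after seeing the data, again 5 of the 10 genes had a TR box, while the share of all promoters with one went from 1.99% to 3.20% and 5.64%, and the share of other box genes called lower from 9.89% to 6.80% and 3.77%. Centring at 30°C was not run, as that table holds part of the genes. No paired analysis was possible because there is 1 library per group.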
